A study of Homo sapiens with 6 samples.

Results

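The 27 genes described here make and regulate cholesterol: 19 enzymes that lead from acetyl-CoA to isoprenoids and cholesterol, 6 genes of the SREBP2 control system and 2 sterol transport genes. They were taken by symbol from a deposited table of 27830 genes. All 27 were present once each, and all 27 were among the 14463 genes with enough counts to be tested. RNA was sequenced from LX-2, a human line of hepatic stellate cells. These cells are the pericytes of the liver sinusoid and the main source of collagen in liver fibrosis. A first group of 3 samples was untreated, and a second group of 3 samples received transforming growth factor beta 1 (TGF-β1), a cytokine that drives liver fibrosis, at 10 ng/ml for 24 h. Per the labels, cells were grown in DMEM with 10% fetal bovine serum, and TGF-β1 was given without serum. The labels do not name the medium of the controls during that time, so TGF-β1 and a difference in serum cannot be told apart. Serum carries cholesterol in lipoproteins, so this touches each comparison of these genes.

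Cells build cholesterol from acetyl-CoA through mevalonate and the isoprenoid farnesyl diphosphate, which is joined to squalene and closed into the sterol ring. SREBP2, the product of SREBF2, is the transcription factor that drives most genes of the route. It is held in the endoplasmic reticulum by SCAP and the INSIG proteins when sterols are plentiful. When sterols fall, SCAP escorts it to the Golgi, where the site-1 and site-2 proteases (MBTPS1 and MBTPS2) free its active part.

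Total counts ran from 13866957 to 17694675 per library. Replicate libraries were distinct: their chi-square per degree of freedom was 5.15 to 45.4, above counting error. Whether replicates were separate cultures is not stated in the labels, so a p-value here reflects library-to-library spread that may be technical. Stellate markers were mixed: COL1A1 (1267 to 1969 CPM, counts scaled to a common library size, for markers on total counts), VIM and PDGFRB were expressed, whereas LRAT had 0 to 2 counts, DES 1 to 5 and ACTA2 65 to 92. Of 13 stellate markers, 11 were tested and 1, COL3A1, passed. Its log2 difference was 0.71 (edgeR adjusted p = 0.035). Summed hepatocyte markers, mostly CPS1 and SERPINA1, ran from 50.3 to 54.1 CPM in control and from 57.2 to 72.5 CPM in TGF-β1 libraries. ALB, TTR, APOA2 and FGB were not analysed here, and APOA1 and CYP3A4 had 0 or 1 count. Summed leukocyte markers, mostly CD14 (150 to 301 counts) and ITGAX (148 to 231 counts), ran from 25.7 to 32.2 and from 20.3 to 22.7 CPM. PTPRC ran from 3 to 16 counts. The leukocyte markers CD68 and CD3E and the epithelial marker CDH1 were not analysed here. Endothelial markers, mostly TIE1 and FLT1, summed to 439 to 452 and 430 to 449 CPM, with CDH5 at 0 to 4 counts. Epithelial markers, mostly KRT8 and KRT18, summed to 544 to 664 and 421 to 594 CPM, with EPCAM at 0 or 1 count. The part of these markers in the results was not tested.

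The promoter sequences of 4 of the genes are shown because each carries letters known for binding by SREBP2 or its partner NF-Y. Each run ends where an annotated exon of the gene begins. It reads 5′ to 3′ on the strand of the gene, with matches to TCACNCCAC or CCAAT, on either strand, in capitals. The runs come from RefSeq on GRCh38.p14. For DHCR7 the run shown lies inside the interval of the gene in GENCODE. Another DHCR7 window, chr11:71449044-71449293, held neither match and is not shown.
SREBF2 chr22:41832855-41833078(+): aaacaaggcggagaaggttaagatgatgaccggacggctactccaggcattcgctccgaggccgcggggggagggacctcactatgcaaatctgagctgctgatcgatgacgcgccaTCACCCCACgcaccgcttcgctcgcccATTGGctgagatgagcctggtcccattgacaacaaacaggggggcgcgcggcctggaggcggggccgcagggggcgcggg
HMGCS1 chr5:43313513-43313662(-): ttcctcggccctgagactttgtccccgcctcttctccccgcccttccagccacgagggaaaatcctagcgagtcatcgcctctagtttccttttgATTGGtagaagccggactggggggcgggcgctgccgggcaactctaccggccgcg
DHCR7 chr11:71448436-71448643(-): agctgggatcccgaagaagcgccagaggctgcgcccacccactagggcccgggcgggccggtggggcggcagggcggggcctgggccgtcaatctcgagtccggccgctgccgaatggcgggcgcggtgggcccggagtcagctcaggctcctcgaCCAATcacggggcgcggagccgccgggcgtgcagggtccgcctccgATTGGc
STARD4 chr5:111512591-111512785(-): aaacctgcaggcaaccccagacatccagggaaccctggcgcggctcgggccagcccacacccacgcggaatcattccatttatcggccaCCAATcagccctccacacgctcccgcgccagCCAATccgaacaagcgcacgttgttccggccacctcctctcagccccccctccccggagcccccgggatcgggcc
SREBF2, the regulator itself, held a match to TCACNCCAC, a form of the sterol regulatory element, followed by CCAAT on the other strand. RefSeq windows were at hand for 24 of the 27 genes (not ACAT2, FDFT1 and SQLE). In the 250 bases before the start, that element was found in 1 of 24 (4.17%), against 1.09% of all 27305 genes with a window. The runs shown are shorter, at 224, 150, 208 and 195 bases in the order given, so these counts cannot be recomputed from them. CCAAT was found in 17 of 24 (70.8%), against 37.0% of all genes. SC5D and MSMO1, not shown, also held CCAAT. A match of letters is a description of the window and says nothing of binding in these cells.

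How strongly the route was expressed is read from FPKM, the deposited level scaled for library size and gene length. Mean FPKM over the 6 libraries ran from 0.547 for CYP51A1 (lanosterol 14-demethylase) to 31.2 for SCAP and for SREBF2. MSMO1, the sterol C4-methyl oxidase, followed at 24.6, ACAT2 (cytosolic acetoacetyl-CoA thiolase, the entry step) at 22.8 and DHCR7, the last reductase of the route, at 22.0. The intracellular cholesterol exporter NPC1 stood at 20.4. At the low end were SC5D (sterol C5-desaturase) at 1.56 and GGPS1 (geranylgeranyl diphosphate synthase) at 0.969 FPKM. SREBF2 and its escort SCAP were thus higher in mean FPKM than each of the 19 enzymes. The value of CYP51A1 rests on 8 to 45 counts per library, and 83.2% of its exon bases overlap another annotated gene, so how its reads were assigned bears on its level.

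**Figure D1:**
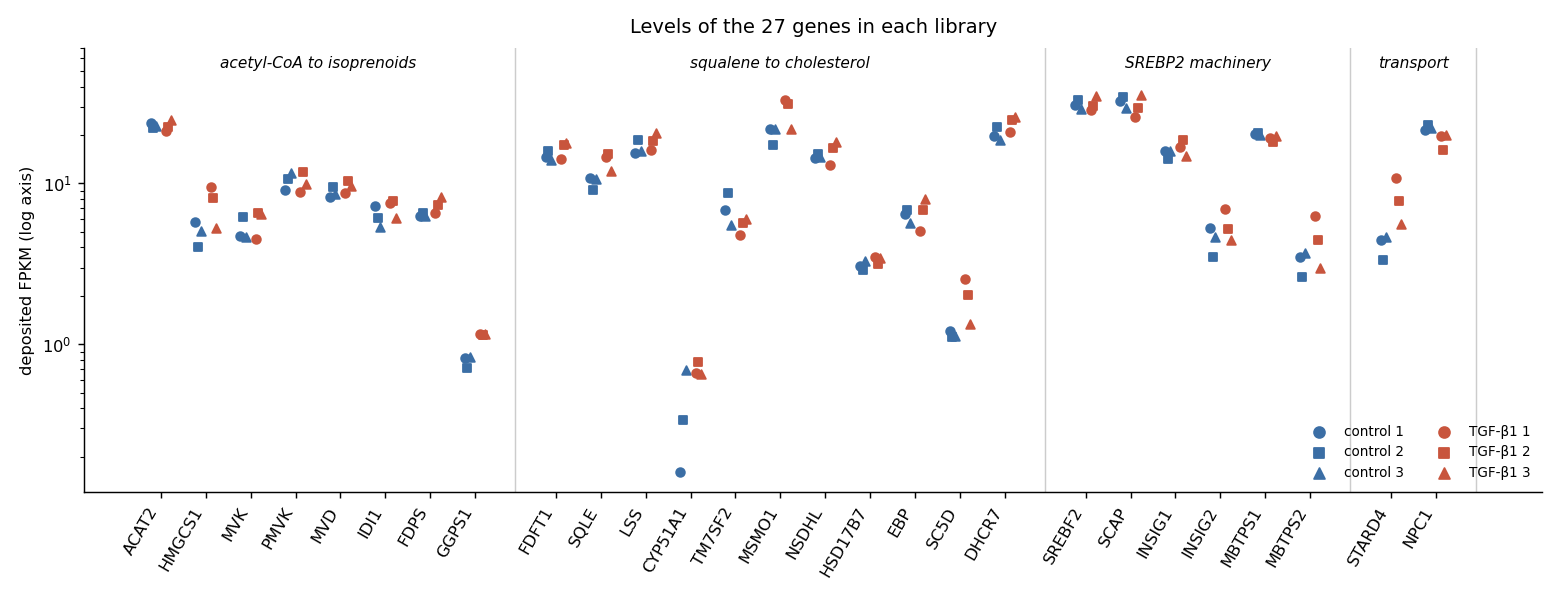
Deposited FPKM (log axis) of the 27 genes in each of the 6 libraries, grouped by role, with control libraries in blue, TGF-β1 libraries in red and a marker shape for each replicate. Means ran from 0.547 for CYP51A1 to 31.2 for SCAP, and for most genes the blue and red points overlap.

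Whether TGF-β1-treated cells differed in these genes was tested with edgeR's quasi-likelihood test over all genes. None of the 27 passed at an adjusted p under 0.05, where 0.366% of all genes tested did (0.187% higher and 0.180% lower). At an unadjusted p under 0.05 there were 6 (15.6% of all genes), and all 6 were higher with TGF-β1 (11.1% of all genes): STARD4, SC5D, SQLE, MSMO1, HMGCS1 and GGPS1. Log2 differences were above 0 for 20 of the 27 genes, against 51.0% of all genes, and their median was 0.14 against 0.01. In DESeq2, 2 of the 27 passed, STARD4 and SC5D, where 3.41% of all genes rose. In edgeR without the filter on low counts, HMGCS1, SC5D and STARD4 passed, where 3.85% of all genes rose. Without TGF-β1 replicate 3, edgeR called HMGCS1, SQLE, MSMO1, SC5D, MBTPS2 and STARD4 higher, where 9.24% of all genes rose. Without TGF-β1 replicate 1 it called STARD4 alone, where 1.47% rose. The median stayed above 0, at 0.11 to 0.16, under each of the other scalings of the libraries. By library, the median log2 deviation of the 27 genes from each gene's own mean was -0.10, -0.01 and -0.13 in control replicates 1 to 3. It was -0.07, 0.14 and 0.10 in TGF-β1 replicates 1 to 3, so TGF-β1 replicate 1 lay among the controls. A lower share of a cell type and less RNA per cell cannot be told apart in such bulk samples.

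The enzymes from acetyl-CoA to isoprenoids summed to 236, 241 and 224 CPM in control replicates 1 to 3. In TGF-β1 replicates 1 to 3 they summed to 258, 275 and 265 CPM. These sums did not overlap, and 6 of the 8 genes had a log2 difference above 0, with a median of 0.17. By single gene, the groups did not overlap in only 1 of the 8, GGPS1. The mean sum went from 234 to 266 CPM, and HMGCS1 alone went from 33.0 to 50.4 CPM. The sum thus leans on HMGCS1. How often sums of other gene sets do not overlap was not tested. Summed over all 27 genes the groups did overlap, at 1746, 1856 and 1692 CPM in control and 1802, 1817 and 1950 CPM in TGF-β1. None of the 8 passed. HMGCS1, which condenses acetyl-CoA with acetoacetyl-CoA ahead of mevalonate (chr5:43289395-43313512, GRCh38), had 38.0, 27.6 and 33.4 CPM in control and 62.6, 52.8 and 35.6 CPM in TGF-β1 libraries. TGF-β1 replicates 1 and 2 were above all controls, while replicate 3 lay below control replicate 1. The log2 difference was 0.61 ± 0.21 (SE; 1.53-fold; edgeR adjusted p = 0.205).

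GGPS1, which makes the lipid used to prenylate Rab proteins, had 3.11, 2.80 and 3.17 CPM in control and 4.37, 4.21 and 4.49 CPM in TGF-β1 libraries. All TGF-β1 values were above all controls, on 44 to 72 counts per library. GGPS1 thus differed by a log2 value of 0.53 ± 0.21 (SE; edgeR adjusted p = 0.262). Of its exon bases 41.0% overlap other genes, among them ARID4B, whose log2 difference was 1.01. Without strand in the libraries, reads of such overlaps cannot be told apart.

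The other isoprenoid enzymes lay closer to 0. Mevalonate kinase (MVK) had a log2 difference of 0.15, mevalonate diphosphate decarboxylase (MVD) 0.11, isopentenyl diphosphate isomerase (IDI1) 0.19 and farnesyl diphosphate synthase (FDPS) 0.20. ACAT2 and phosphomevalonate kinase (PMVK) stood at -0.02 and -0.05. In these 6 genes the groups overlapped. Of the exon bases of ACAT2, 52.3% overlap another gene.

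The 11 enzymes from squalene synthesis to cholesterol summed to 521, 575 and 508 CPM in control and to 581, 634 and 649 CPM in TGF-β1 libraries. The lowest TGF-β1 library was thus just above the highest control. By single gene, the groups did not overlap in only 3 of the 11: SQLE, SC5D and MSMO1. The mean sum went from 535 to 621 CPM, with MSMO1 going from 58.5 to 81.5 and SQLE from 44.1 to 59.4 CPM. Log2 differences were above 0 for 10 of the 11, with a median of 0.14, and none passed. SQLE, squalene epoxidase, the first oxygen-using step of the sterol branch (chr8:124998497-125022283), had 46.3, 40.4 and 45.7 CPM in control and 62.3, 63.9 and 52.2 CPM in TGF-β1 libraries. Each TGF-β1 library was above each control. They differed by 0.43 ± 0.14 on the log2 scale (SE; 1.35-fold; edgeR adjusted p = 0.192).

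SC5D (chr11:121292453-121308694) had 12.1, 11.5 and 11.2 CPM in control and 25.3, 20.0 and 13.7 CPM in TGF-β1 libraries. The controls lay within 1 CPM of each other, whereas the TGF-β1 libraries were spread from just above them upward. On the log2 scale SC5D differed by 0.76 ± 0.22 (SE; 1.70-fold; edgeR adjusted p = 0.149). MSMO1 (chr4:165327623-165343160) showed the same order of the TGF-β1 libraries, with 62.0, 51.3 and 62.2 CPM in control and 93.6, 87.4 and 63.6 CPM in TGF-β1. TGF-β1 replicate 3 exceeded the highest control by little. For MSMO1 the log2 difference was 0.48 ± 0.16 (SE; 1.40-fold; edgeR adjusted p = 0.202).

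DHCR7 (chr11:71428193-71452868), which makes cholesterol from 7-dehydrocholesterol, had 134, 158 and 126 CPM in control and 141, 166 and 181 CPM in TGF-β1 libraries. The groups overlapped, and here TGF-β1 replicate 3 was the highest library rather than the lowest of its group. The log2 difference was 0.22 ± 0.14 (SE; edgeR adjusted p = 0.472). Lanosterol synthase (LSS) had the same order in TGF-β1 libraries, with 115, 129 and 152 CPM against 112, 138 and 115 CPM in control, and a log2 difference of 0.11. Squalene synthase (FDFT1) stood at 0.14, the sterol dehydrogenases NSDHL and HSD17B7 at 0.09 and 0.10, and the isomerase EBP at 0.05. CYP51A1 had 0.566, 1.22 and 2.44 CPM in control and 2.31, 2.67 and 2.35 CPM in TGF-β1 libraries, and its log2 difference of 0.77 had a 95% interval from -0.13 to 1.67. It was 0.42 without control replicate 1, 1.41 without control replicate 3 and 0.30 on log2(FPKM + 1). The C14 sterol reductase TM7SF2 was the exception in sign, at -0.38 with an interval from -0.82 to 0.06, and at -0.19 without control replicate 2.

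**Figure D2:**
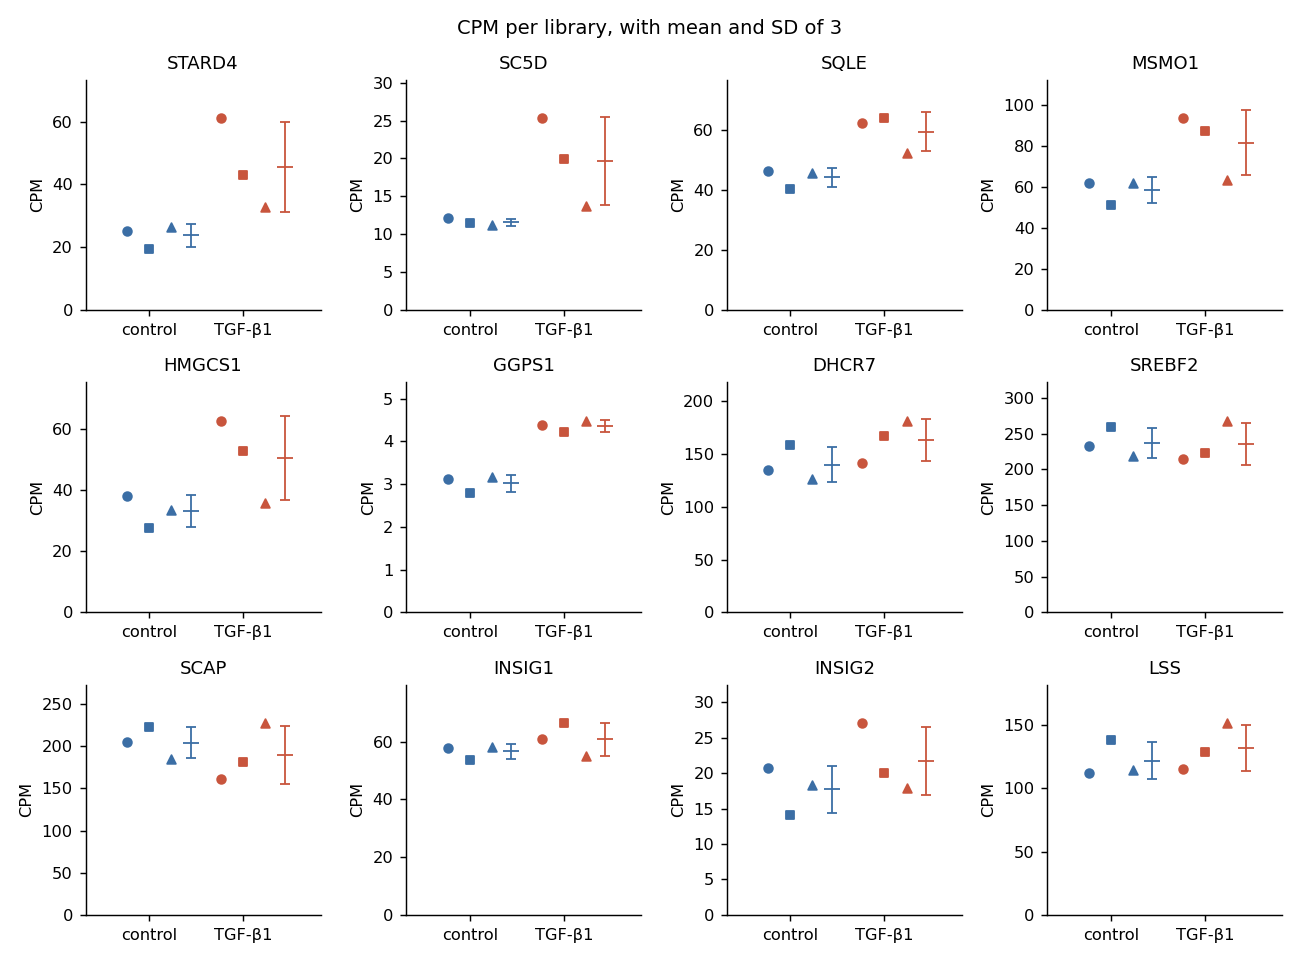
CPM (linear axis from 0) of 12 of the genes in each library, with circles, squares and triangles for replicates 1, 2 and 3, and the mean with SD (n = 3) beside each group. STARD4, SC5D, SQLE, MSMO1 and GGPS1 do not overlap between the groups, and in STARD4, SC5D, MSMO1 and HMGCS1 the triangle is the lowest TGF-β1 point while in DHCR7, SREBF2, SCAP and LSS it is the highest.

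The SREBP2 control genes showed no shift in 1 direction: 3 of 6 had a log2 difference above 0 and 3 below, with a median of 0.05, and none passed. They summed to 755, 791 and 719 CPM in control and to 714, 712 and 804 CPM in TGF-β1 libraries, which overlapped. SREBF2 (chr22:41833079-41907308) had 232, 259 and 219 CPM in control and 215, 223 and 268 CPM in TGF-β1 libraries. The ranges of the groups nearly coincided. The log2 difference was -0.01, with a 95% interval from -0.30 to 0.28 (edgeR adjusted p = 0.983). A change of SREBF2 within that interval could not be told from 0 here. SCAP had 205, 222 and 185 CPM in control and 161, 181 and 227 CPM in TGF-β1 libraries. TGF-β1 libraries held both its lowest and its highest value, and the log2 difference was -0.11 (interval -0.43 to 0.22).

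INSIG1, itself a target of SREBP2 and a brake on it, had 58.0, 53.7 and 58.2 CPM in control and 61.0, 66.5 and 55.1 CPM in TGF-β1 libraries. The groups overlapped, and the log2 difference was 0.10 (interval -0.19 to 0.40). INSIG2, the second brake, had 20.8, 14.2 and 18.3 CPM in control and 27.1, 20.0 and 18.0 CPM in TGF-β1 libraries. They overlapped too, with a log2 difference of 0.29 (interval -0.16 to 0.74). The proteases differed in sign, with MBTPS1 at -0.11 and MBTPS2 at 0.47, and both had overlapping groups.

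The 2 transport genes differed in opposite directions. Their summed CPM overlapped between the groups, at 234, 249 and 241 in control and 250, 195 and 232 in TGF-β1 libraries. STARD4 (chr5:111496033-111512590), a soluble carrier that moves cholesterol between membranes and is a known SREBP2 target, had 25.3, 19.6 and 26.4 CPM in control. It had 61.2, 43.2 and 32.7 CPM in TGF-β1 replicates 1 to 3. All TGF-β1 libraries were above all controls. The log2 difference, 0.94 ± 0.23 (SE; 1.92-fold; edgeR adjusted p = 0.117), was the largest of the 27 and had their smallest p. It passed in DESeq2 (log2 difference 0.93, adjusted p = 0.0031), in edgeR without TGF-β1 replicate 1 (0.67, adjusted p = 0.0167) and in edgeR without TGF-β1 replicate 3 (1.13, adjusted p = 0.00595). It did not pass in edgeR without control replicate 1, 2 or 3 (adjusted p = 0.358, 0.208 and 0.187) or without TGF-β1 replicate 2 (adjusted p = 0.366). The antisense transcript STARD4-AS1, which overlaps 2.18% of the exon bases of STARD4, had 9, 17 and 23 counts in control and 79, 32 and 19 in TGF-β1 libraries.

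NPC1 (chr18:23506184-23586898), which lets cholesterol leave the lysosome, was the 1 gene whose TGF-β1 libraries all lay below the controls (9.12% of all genes did so). It had 209, 230 and 215 CPM in control and 188, 152 and 200 CPM in TGF-β1 libraries. NPC1 differed by -0.27 ± 0.13 on the log2 scale (SE; 1.21-fold lower; edgeR adjusted p = 0.344), and by -0.17 without TGF-β1 replicate 2. In the other direction, groups did not overlap in 5 of the 27 genes (7.93% of all genes): STARD4, SC5D, SQLE, MSMO1 and GGPS1. Of the members, NPC1, DHCR7, LSS and CYP51A1 are given per library because of their values, not by the rule for named genes.

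**Figure D3:**
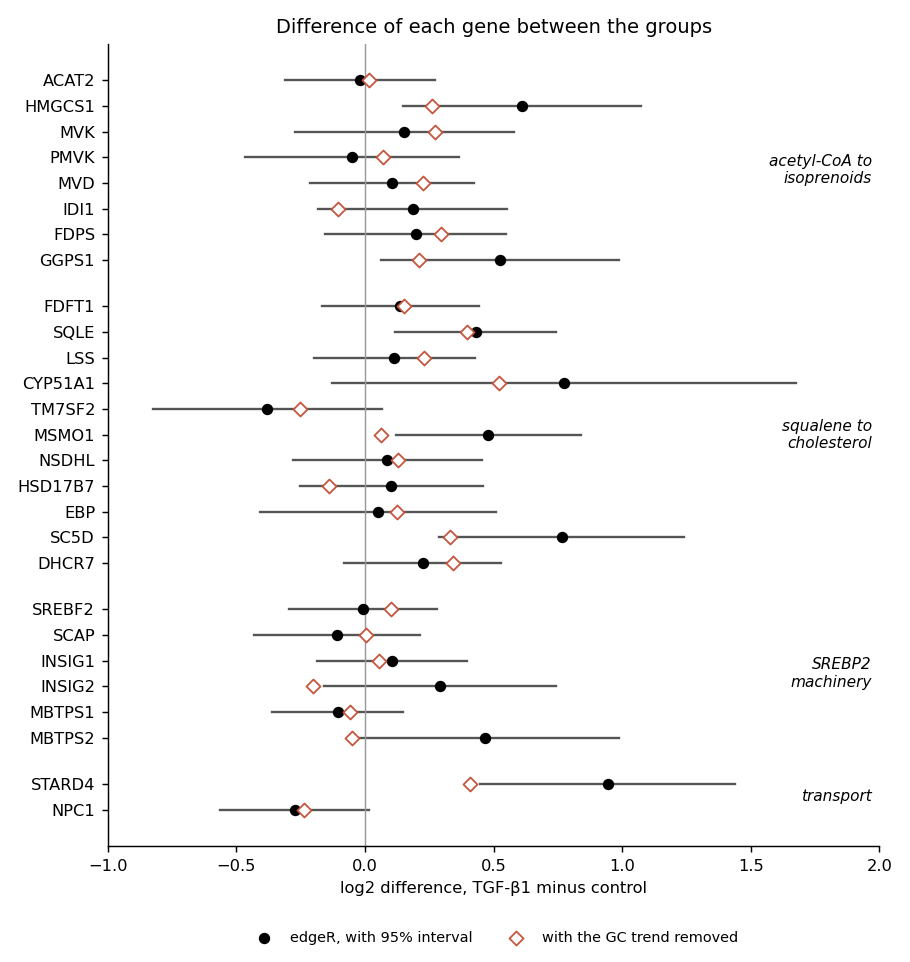
Log2 difference (TGF-β1 minus control) of each of the 27 genes, as counted (filled, with the 95% interval) and with the GC trend removed (open diamond). As counted, 20 of 27 lie above 0; diamonds of STARD4, SC5D, MSMO1, INSIG2 and MBTPS2 stand well to the left of their filled points.

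The size of the difference went with the GC content of the transcript. Over the 27 genes the log2 difference and GC content had a Pearson correlation of -0.73 (Spearman -0.71). The points share the same 6 libraries. Over 14375 tested genes with a GC value the correlation was -0.48 (Spearman -0.53), so low-GC transcripts were higher in the TGF-β1 group in general. The 9 genes of lowest GC (34.2 to 41.5%) were STARD4, INSIG2, MBTPS2, MSMO1, SC5D, HMGCS1, GGPS1, IDI1 and CYP51A1. All 9 had a log2 difference above 0, with a median of 0.53, and 2988 other genes of that GC range had a median of 0.40, with 87.0% above 0. The 9 of highest GC (56.0 to 64.2%), among them DHCR7, LSS, MVD and SREBF2, had a median of 0.11, with 5 above 0. There 3144 other genes had a median of -0.12, with 25.6% above 0. In the middle 9, SQLE and NPC1 among them, the median was 0.09 against 0.01 in 6184 other genes.

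The libraries of a group differed in this pattern. For the 9 genes of lowest GC, the median log2 deviation from each gene's own mean was -0.14, -0.45 and -0.19 in control replicates 1 to 3. It was 0.49, 0.35 and -0.11 in TGF-β1 replicates 1 to 3. TGF-β1 replicate 3 thus lay next to the controls. Other genes of that GC range were also highest in TGF-β1 replicate 1 (0.58) and lowest in control replicate 2 (-0.41). Their value in TGF-β1 replicate 3 (-0.17) lay below those of control replicates 1 and 3 (-0.06 and -0.05). For the 9 genes of highest GC the order of the TGF-β1 libraries was turned: -0.13, 0.07 and 0.22 in TGF-β1 replicates 1 to 3, against -0.15, 0.13 and -0.13 in control. The source of this trend in the libraries was not tested.

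**Figure D4:**
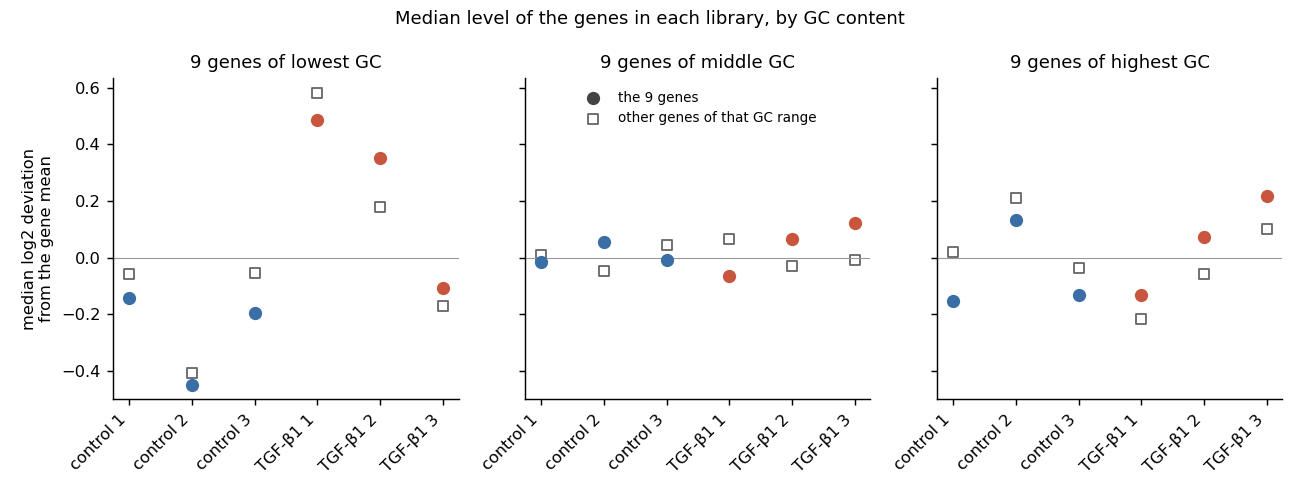
Median log2 deviation from each gene's mean in each library, for the 9 genes of lowest, middle and highest GC content (filled circles, blue for control and red for TGF-β1) and for the other tested genes of each GC range (open squares). In the lowest 9 TGF-β1 replicate 1 reaches 0.49 and control replicate 2 falls to -0.45, and the squares are highest and lowest in the same libraries.

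The comparison was therefore also made with the smooth trend of each library on GC content removed. Calls among all genes then numbered 486 (1.71% of all genes were called higher), and 3 of the 27 genes passed, all of them higher. DHCR7 rose by a log2 difference of 0.34 ± 0.08 (SE; 1.27-fold; edgeR adjusted p = 0.0369). On the corrected scale it had 133, 139 and 129 CPM in control and 160, 175 and 172 CPM in TGF-β1 libraries, which no longer overlapped. STARD4 rose by 0.41 ± 0.10 (SE; 1.33-fold; edgeR adjusted p = 0.0449), with 28.3, 26.0 and 29.9 CPM in control and 38.2, 36.2 and 37.2 CPM in TGF-β1. Its difference as counted was 0.94, and on the corrected scale its TGF-β1 libraries lay close together. SQLE rose by 0.40 ± 0.10 (SE; 1.32-fold; edgeR adjusted p = 0.0461), with 46.6, 43.5 and 43.9 CPM in control and 57.4, 65.2 and 53.5 CPM in TGF-β1.

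These calls rest on few libraries. Without any 1 of the control replicates, or without TGF-β1 replicate 2, none of the 27 passed with the trend removed. Without TGF-β1 replicate 1 only DHCR7 did (1.15% of all genes rose), and without TGF-β1 replicate 3 SQLE, DHCR7 and STARD4 did (4.38% rose).

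Other members moved with the removal. MSMO1 went from 0.48 to 0.06, with 66.8, 68.7 and 66.0 CPM in control and 61.7, 76.2 and 72.6 CPM in TGF-β1 libraries. HMGCS1 went from 0.61 to 0.26 and SC5D from 0.76 to 0.33, and in both the TGF-β1 libraries were then above all controls. MVD went from 0.11 to 0.22, FDPS from 0.20 to 0.29 and LSS from 0.11 to 0.23, again with no overlap. Differences of INSIG2 (-0.20), MBTPS2 (-0.05), IDI1 (-0.10) and HSD17B7 (-0.14) turned below 0, and those of SREBF2 (0.10), PMVK (0.07), ACAT2 (0.02) and SCAP (0.00) turned above it. The corrected SREBF2 values were 230, 230 and 223 CPM in control and 240, 236 and 255 CPM in TGF-β1 libraries.

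By role, 16 of the 19 enzymes had a log2 difference above 0 as counted, and 16 with the trend removed. Their medians were 0.15 and 0.21. The sets differed: ACAT2 and PMVK were below 0 only as counted, and IDI1 and HSD17B7 only with the trend removed. TM7SF2 was below 0 in both. The 6 control genes were split 3 to 3 in both, again with different genes, with medians of 0.05 and -0.02. For all 27 genes the median was 0.12 with the trend removed, against -0.01 over all genes, and 20 of 27 were above 0 (47.8% of all genes). Groups did not overlap in 9 genes that were higher (11.0% of all genes), and in NPC1 and MBTPS1, which were lower (12.9% of all genes). NPC1 stayed at -0.24 (edgeR adjusted p = 0.168). After the removal the correlation of the difference with GC content over the 27 genes was -0.05, and -0.01 over all genes with a GC value. Values near 0 follow from how the trend is removed.

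**Figure D5:**
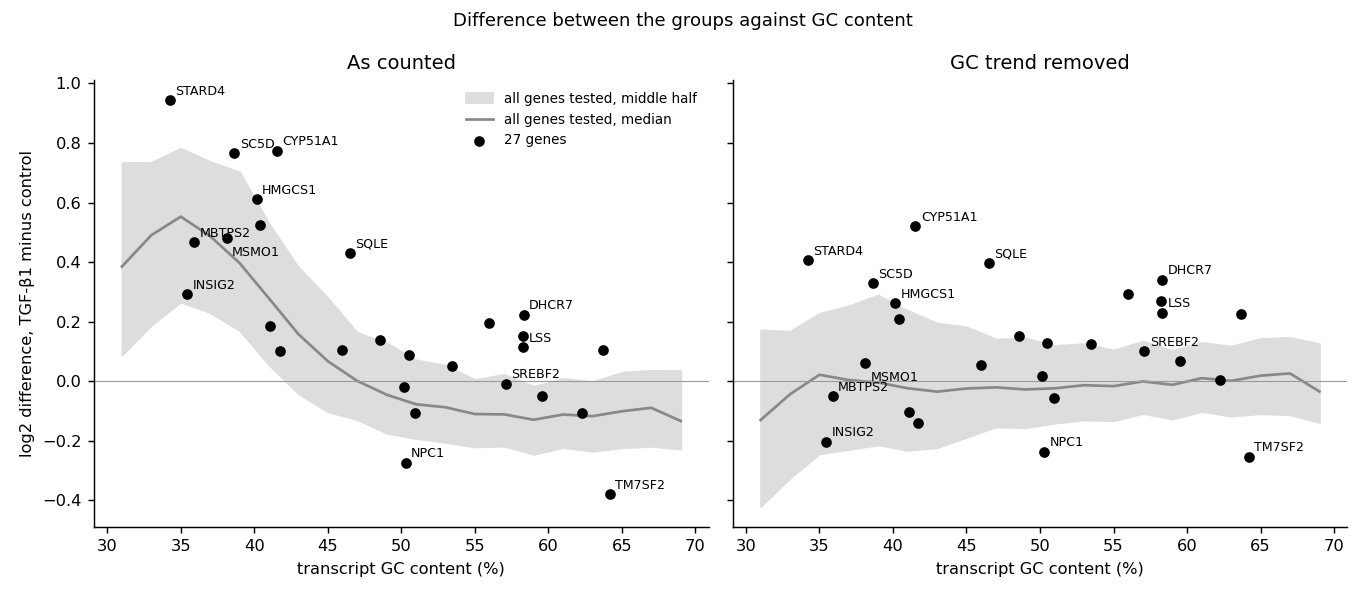
Log2 difference (TGF-β1 minus control) against transcript GC content (%) for the 27 genes (points) over the median and middle range of all tested genes (line and grey band, bins of GC content), as counted on the left and with the GC trend removed on the right. As counted, STARD4, SC5D, CYP51A1 and HMGCS1 stand highest at low GC, where the grey line is also high; with the trend removed SQLE, DHCR7 and STARD4 are among the points above the band.

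Further genes around the route were read from 6 lists with 90 distinct tested genes. Of these, 45 had a log2 difference above 0 (51.0% of all genes) and 45 below. None passed as counted. At an unadjusted edgeR p under 0.05, 13 were higher (11.1% of all genes) and 6 lower (650 of all 14463 genes). With the GC trend removed, 2 rose and 2 fell (3.36% of all genes were called). In the list of sterol sensing and SREBP turnover, with 14 genes tested, GPAM, a glycerol-phosphate acyltransferase of triglyceride synthesis and a known SREBP target rather than a sensor, had 30.8 ± 6.90 CPM in control and 65.3 ± 22.8 CPM with TGF-β1 (SD, n = 3). Its log2 difference was 1.09 as counted (edgeR adjusted p = 0.105) and 0.78 with the trend removed (edgeR adjusted p = 0.00459). ERLIN2, part of the complex that degrades the mevalonate-forming reductase, fell with the trend removed, by 0.42 on the log2 scale (edgeR adjusted p = 0.0369). PAQR3, a Golgi anchor of SCAP, stood at 0.67 as counted and 0.15 with the trend removed, and did not pass. Nor did the chaperone HSP90B1, at 0.48 and 0.18.

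Among 15 genes of LXR signalling, sterol efflux and esterification, ABCG1, the exporter of cholesterol to high-density lipoprotein, went from 8.52 ± 1.11 to 4.14 ± 1.11 CPM (SD, n = 3). Its log2 difference was -1.04 as counted (edgeR adjusted p = 0.098), and it fell by 0.96 with the trend removed (edgeR adjusted p = 0.0242). The corepressor NCOR1 (0.50 as counted) and the sterol 27-hydroxylase CYP27A1 (-1.36, at a control mean of 1.16 CPM) did not pass. Among 18 genes of the fatty acid arm driven by SREBP1, SCD, the stearoyl-CoA desaturase, had 233, 224 and 238 CPM in control and 305, 280 and 304 CPM in TGF-β1 libraries, which did not overlap. It rose by 0.34 with the trend removed (edgeR adjusted p = 0.0349), and its difference as counted was 0.36 (edgeR adjusted p = 0.183). ELOVL6, the fatty acid elongase, stood at 0.74 and 0.45 and the acyl-CoA synthetase ACSL3 at 0.53 and 0.08, and neither passed.

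No gene passed in either form in the other 3 lists. Among 19 genes of isoprenoid use, the Rab escort proteins CHML and CHM had log2 differences of 1.07 and 0.89 as counted and 0.55 and 0.40 with the trend removed. COQ2, the prenyltransferase of ubiquinone synthesis, stood at -0.32 in both forms. Among 20 genes of sterol uptake and transport, OSBPL8, a relative of the oxysterol-binding protein, stood at 0.85 and 0.32, the sterol carrier GRAMD1C at 1.69 and 1.32 (control mean 0.358 CPM) and TMEM41B at 0.40 and 0.07. In the 6 further sterol enzymes and partners the largest was LBR, the lamin B receptor with sterol C14-reductase activity, at 0.26 and -0.18. The scaffold protein ERG28 stood at 0.07.

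A limit of counting touches some members. Of 7 pseudogene rows named after members, 6 had under 10 counts in each library, and HSD17B7P2 had 16 to 46. HSD17B7 had 207 to 271 counts, and how the authors' counting split reads between such copies is not stated in the labels.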

How the data were processed

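Per the labels' protocols, Trizol was used for extraction and NEBNext Ultra RNA, a kit that does not mark strand, for libraries. HISAT2, HTSeq version 0.13.5 and GRCh38 are named in the submitters' processing notes, with no role given. The authors deposited 1 table of 27830 genes with whole-number read counts and FPKM per sample, per the file headers. The labels name neither annotation release nor RNA selection.

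The counts were analysed by edgeR 4.0.16 under R 4.3.3 (quasi-likelihood, robust, TMM, filterByExpr), which kept 14463 genes, with Benjamini-Hochberg adjustment over all of them and calls at 0.05. CPM values use TMM-scaled totals. FPKM was used for levels between genes. Transcript GC content, coordinates and exon overlap come from the longest transcript and exons of GENCODE release 29, matched by identifier for 26968 genes. The GC trend is a loess fit (span 0.5) of each library's log2 deviations on GC content, entered as an offset. Because the trend is fitted in each library, it can also remove a true difference that goes with GC content. Intervals are 95%. A count of 3, the detection floor, was 0.17 to 0.216 CPM, which covers counting error only. The edgeR test was tested on simulated data.

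The members, the lists and the GC alternative were chosen with earlier results of these data known, so counts over them are descriptions. Named genes were all 27 members and, per further list, called genes or otherwise up to 3 with the smallest p, of which some are not reported here. Per-library values were set for the 6 members with the smallest p, the 3 highest in FPKM, SREBF2, SCAP, INSIG1 and INSIG2. Alternatives were other scaling factors, other filters, a block by replicate number, leaving out single samples, DESeq2 1.42.0, limma 3.58.1 (voom) and limma on log2(FPKM + 1) and log2(FPKM + 0.1).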

Additional observations from a re-analysis of the deposited data

How the results depend on the processing

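The median log2 difference of the 27 genes was 0.14 and stayed above 0 under every alternative run. With the GC trend removed it was 0.06 without TGF-β1 replicate 3 and 0.21 without TGF-β1 replicate 1, the lowest and highest values. The medians of single libraries had a pooled SD of 0.09 within groups. That SD is not the error of a group difference, so it cannot tell whether these values differ. Calls depended more on the setting. As counted, 53 genes and none of the 27 passed. With the GC trend removed 486 and 3 passed, with upper quartile factors 111 and 0, without a filter 1240 and 3 (HMGCS1, SC5D, STARD4), and in DESeq2 615 and 2. Without a filter calls split into 1071 higher and 169 lower, in DESeq2 into 493 and 122. Leaving out 1 sample gave 4 to 1671 genes and 0 to 6 of the 27: 13 without control replicate 1, 37 without control replicate 2, 15 without control replicate 3, 4 without TGF-β1 replicate 2, 324 (STARD4 the 1 member) without TGF-β1 replicate 1, and 1671 (HMGCS1, SQLE, MSMO1, SC5D, MBTPS2, STARD4) without TGF-β1 replicate 3. With the trend removed, leaving out 1 sample gave 103 to 1464 genes and 0 to 3 of the 27. The cause was not tested.

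Same-numbered samples shared little of their deviations (correlations 0.16, 0.09 and -0.32 as counted). With the GC trend removed the correlations were -0.01, 0.07 and -0.16. Resting on 6 libraries, these values cannot decide whether the samples were paired. With the replicate number as a block 527 genes passed (429 higher, 98 lower) and 1 of the 27, STARD4 (log2 difference 0.91, edgeR adjusted p = 0.0138); with the block and the GC trend removed 411 and 0 passed.

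No member was called lower in any alternative, where 0 to 813 of all genes tested were called lower per setting. A share of all genes that kept their sign was not computed. Of the 27 members, 15 kept their sign in all 24. Signs turned in the other 12, of which MSMO1 and MBTPS2 were called higher without TGF-β1 replicate 3. With the trend removed the log2 differences were 0.0173 for ACAT2, 0.0683 for PMVK, -0.10 for IDI1, -0.14 for HSD17B7, 0.10 for SREBF2, 0.0046 for SCAP, -0.20 for INSIG2 and -0.051 for MBTPS2. With the block added they were, in that order, 0.0157, 0.072, -0.0989, -0.143, 0.0992, 0.00181, -0.20 and -0.0515. SREBF2 stood at 0.0105 on total counts, 0.00774 on log2(FPKM + 1) and 0.0079 on log2(FPKM + 0.1). Leaving out 1 sample, as counted or with the trend removed, gave -0.108 to 0.0728 for ACAT2, -0.155 to 0.185 for PMVK, -0.268 to 0.292 for IDI1, -0.322 to 0.159 for HSD17B7, -0.115 to 0.121 for SREBF2, -0.261 to 0.0454 for SCAP, -0.305 to 0.417 for INSIG2, -0.106 to 0.68 for MBTPS2, -0.122 to 0.27 for EBP, -0.0403 to 0.257 for NSDHL, -0.00397 to 0.627 for MSMO1 and -0.0469 to 0.169 for INSIG1.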
